A study of Mus musculus with 8 samples.

Results

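Zic1, Zic2, Zic4 and Zic5 encode zinc finger transcription factors of the ZIC family and are 4 of the 32285 features counted in these nuclei. They were chosen by symbol, under a rule that uses no measured value, with earlier results of these data known. Their unique molecular identifiers (UMIs, each standing for 1 captured RNA molecule) were summed in each library over the nuclei of each annotated cell type, and a level is given as counts per 1000000 UMIs of those nuclei (CPM). RNA was counted from 3′ ends, introns included, in single nuclei of the paraflocculus/flocculus (PF/F) of the cerebellum and of the petrous temporal bone (PTB), which encloses it in the subarcuate fossa. Mice were 5.5 days old and either WT or Tbx1+/-, that is, with 1 targeted allele of the T-box factor gene Tbx1 in every cell, on the C57BL/6J background and of both sexes. WT mice were littermates of the Tbx1+/- mice, and no other allele or treatment is named for either genotype. Each tissue and genotype had 2 libraries, numbered as replicates 1 and 2, and each library pooled 5 mice, so the 8 libraries and not the nuclei are the replicates.

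ZIC proteins bind DNA through zinc fingers related to those of the Gli factors of the Hedgehog pathway. In the cerebellum they are known from granule neuron progenitors (GNPs), the cells that divide in the external germinal layer in response to Sonic hedgehog, and from the granule neurons that these become. They are also known from the dorsal neural tube, from the meninges and from mesenchyme of the head, and loss of Zic1 and Zic4 is a known cause of cerebellar hypoplasia. Zic genes lie as neighbours in pairs that are transcribed away from each other.

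The 4 genes form 2 such pairs, and positions are from the GENCODE vM21 annotation of GRCm38. Zic1 (ENSMUSG00000032368, chr9:91358058-91365810, minus strand) and Zic4 (ENSMUSG00000036972, chr9:91362413-91389348, plus strand) overlap by 3398 bases. Zic5 (ENSMUSG00000041703, chr14:122456795-122465677, minus strand) and Zic2 (ENSMUSG00000061524, chr14:122475435-122479852, plus strand) are separated by 9757 bases. Whether the counting used strand is not given in the sources used here, so reads from the overlap of Zic1 and Zic4 cannot be told apart. The sequences just before the RefSeq starts of 1 gene of each pair are shown because members of a pair had alike orders of cell types while the pairs parted in the bone. Each is the stretch from 250 to 51 bases before the start (RefSeq, GRCm38.p6), read 5′ to 3′ on the strand of the gene, at chr9:91365819-91366018 for Zic1 and at chr14:122465709-122465908 for Zic5. Capitals mark matches of the motifs CCAAT and GGGCGG on either strand.
Zic1: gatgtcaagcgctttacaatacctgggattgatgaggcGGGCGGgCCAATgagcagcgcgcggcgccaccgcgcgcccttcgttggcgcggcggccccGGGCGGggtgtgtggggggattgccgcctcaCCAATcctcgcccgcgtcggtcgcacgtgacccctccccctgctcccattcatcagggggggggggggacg
Zic5: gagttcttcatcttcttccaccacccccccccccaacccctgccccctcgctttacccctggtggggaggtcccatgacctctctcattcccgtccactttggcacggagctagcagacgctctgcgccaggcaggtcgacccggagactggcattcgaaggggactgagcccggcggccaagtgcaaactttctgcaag
The Zic1 stretch held 2 matches each of CCAAT and GGGCGG, motifs found in 28.4% and 24.6% of 32851 stretches of the same length, and had a GC content of 71.5% against a median of 51.5%. The Zic5 stretch, with a GC content of 63.0%, held neither. The Zic1 stretch lies inside the GENCODE span of Zic4, its partner on the opposite strand. The stretch at the same distance before the RefSeq start of Zic4 lies inside that span too. It also held neither motif and had a GC content of 43.5%. The contrast shown is thus between 2 genes and not between the pairs. The motifs CAGCAGG, part of the sequence that ZIC proteins bind, and GACCACCCA, the core of the Gli site, were also searched on both strands. They were in neither of the 2 stretches shown, and in 6.82% and 0.192% of all stretches. These letters in these windows say nothing of which factors bind there.

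The PF/F libraries held 37700625 to 52902902 UMIs in 9153 to 13835 annotated nuclei, with medians of 2610 to 3503 UMIs, and the PTB libraries held 33515253 to 43752949 UMIs in 5981 to 9977 annotated nuclei, with medians of 3853 to 4758 UMIs. Any 2 libraries shared 11 to 60 barcodes, at most 0.503% of the smaller one. The counts are as deposited, without a correction for free RNA, and fewer cells of a type and less RNA per cell cannot be told apart in summed nuclei. Tbx1 itself was at 26.3 to 39.4 CPM in the PTB and at 0.0949 to 0.265 CPM in the PF/F. Its log2 difference between Tbx1+/- and WT was -0.34 (SE 0.17, adjusted p = 1.00, edgeR's quasi-likelihood test) in the PTB, and these counts do not test the genotype, since the deleted exons are not given in the sources used here.

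All 4 genes were higher in the annotated nuclei of the PF/F than in those of the PTB. Over all annotated nuclei Zic1 was at 430 ± 74.4 CPM (SD, n = 4) in the PF/F and at 44.4 ± 5.03 CPM (SD, n = 4) in the PTB, and Zic4 at 331 ± 43.0 CPM (SD, n = 4) and 42.4 ± 9.97 CPM (SD, n = 4). Zic2 was at 63.5 ± 1.31 CPM (SD, n = 4) in the PF/F and at 19.8 ± 4.42 CPM (SD, n = 4) in the PTB, and Zic5 at 81.0 ± 7.07 CPM (SD, n = 4) and 25.4 ± 3.30 CPM (SD, n = 4). The ranges of the tissues did not overlap for any of them. The log2 difference, PTB minus PF/F, was -3.29 (SE 0.14, adjusted p = 3.05e-08) for Zic1, -2.98 (SE 0.17, adjusted p = 2.79e-07) for Zic4, -1.70 (SE 0.14, adjusted p = 4.02e-06) for Zic2 and -1.70 (SE 0.11, adjusted p = 8.64e-07) for Zic5 (edgeR's quasi-likelihood test over 21639 genes, 8 libraries). All 4 were thus called higher in the PF/F, where 32.5% of all genes tested were called in that direction and 60.8% in either. This compares different mixes of cell types. The annotated PTB nuclei are also a part of the tissue: connective tissue, chondrocyte, osteoblast and osteoclast types. Immune cells and neurons, which the paper also describes in the bone, are not in the deposited annotation. In the PF/F, differentiated granule neurons gave 43.1% and GNPs 18.3% of the Zic1 UMIs, from 35.9% and 15.4% of all UMIs.

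Levels by type are given for 14 of the 16 annotated PF/F types, and the other two enter only sums and counts over types. Among the 14 types Zic1 was highest in differentiated granule neurons and GNPs. In differentiated granule neurons it was at 587.4 and 444.9 CPM in the Tbx1+/- libraries and at 567.6 and 461.8 CPM in the WT libraries, replicate 1 before replicate 2 here and below, and this type led in 3 of 4 libraries. GNPs were close (501 ± 69.5 CPM, SD, n = 4), with an overlapping range, and below granule neurons within each of the 4 libraries. Astroglia (454 ± 64.3 CPM), progenitors of GABAergic interneurons (443 ± 73.5 CPM), pericytes (423 ± 99.7 CPM) and meningeal cells (408 ± 51.5 CPM; SD, n = 4 for each) followed. The lowest levels were in Purkinje cells (80.0 ± 30.0 CPM, SD, n = 4), GABA.interneuron (73.7 ± 18.4 CPM, SD, n = 4) and the type annotated Progenitors (50.6 ± 28.8 CPM, SD, n = 4). Neighbouring types in the order of levels had overlapping ranges in 12 of 13 cases for Zic1, Zic4 and Zic5 and in 11 of 13 for Zic2. Of those with overlapping ranges, 5 for Zic1, 1 for Zic2, 3 for Zic4 and 2 for Zic5 stood in the same order within each of the 4 libraries, and the rest cannot be ordered beyond the spread.

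Zic4 had its highest mean among them in GNPs, which led in 2 of 4 libraries. In GNPs Zic4 was at 533.8 and 428.5 CPM in Tbx1+/- and at 512.9 and 449.7 CPM in WT. In differentiated granule neurons it was at 379.0 and 314.1 CPM in Tbx1+/- and at 358.1 and 304.2 CPM in WT. The GNP values lay above all granule neuron values. Pericytes, with 12 to 25 nuclei in a library, were at 475 ± 63.7 CPM (SD, n = 4), a range that overlapped that of GNPs. Zic5 was highest in GNPs, at 96.9 and 122.8 CPM in Tbx1+/- and at 100.1 and 144.0 CPM in WT, and led there in 3 of 4 libraries. Astroglia (98.8 ± 10.7 CPM, SD, n = 4), granule neurons (89.3 ± 10.3 CPM, SD, n = 4) and meningeal cells (86.9 ± 11.1 CPM, SD, n = 4) were close, and the ranges of Zic5 in GNPs and in granule neurons overlapped. The highest mean of Zic2 was in meningeal cells, at 85.2 and 109.1 CPM in Tbx1+/- and at 79.2 and 75.2 CPM in WT, followed by granule neurons at 83.1 ± 1.04 CPM (SD, n = 4) and GNPs at 75.2 ± 4.92 CPM (SD, n = 4), and meningeal cells led in 2 of 4 libraries. That lead rests on 1 library, since without Tbx1+/- replicate 2 the mean of meningeal cells was 79.9 CPM, under all granule neuron values (82.0 to 84.5 CPM).

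**Figure D1:**
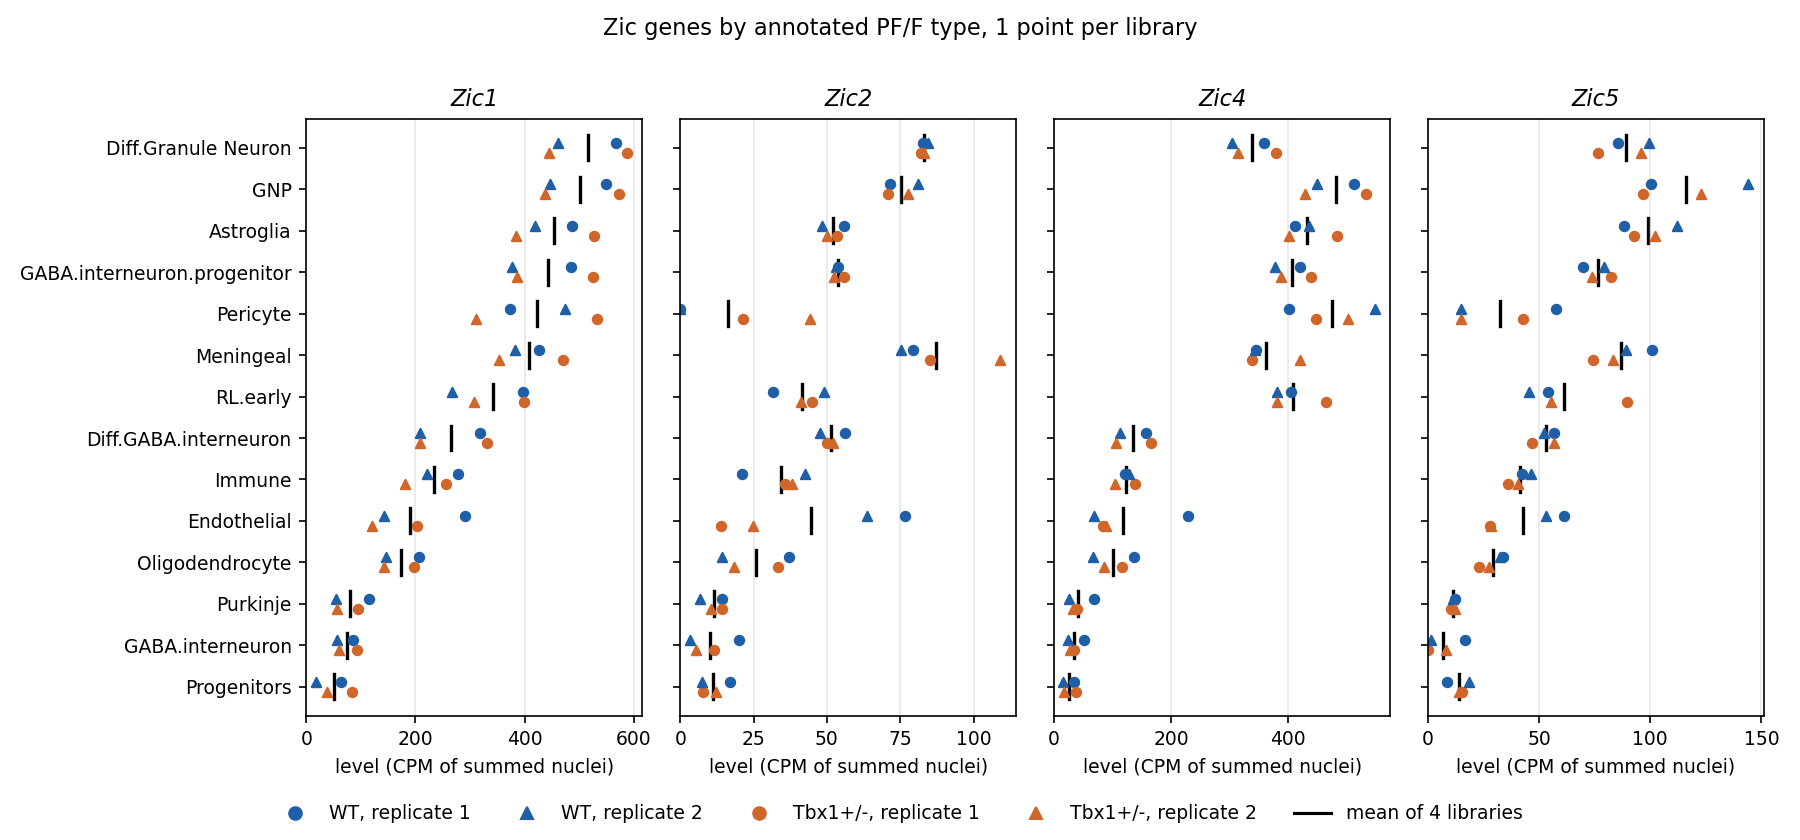
Levels of Zic1, Zic2, Zic4 and Zic5 in counts per 1000000 UMIs (x axis, from 0, with its own scale for each gene) in each of 14 annotated PF/F cell types (y axis); points are libraries, coloured by genotype and shaped by replicate number, and black ticks are means of 4 libraries. Zic1 has its highest mean in differentiated granule neurons, Zic4 and Zic5 in GNPs and Zic2 in meningeal cells through 1 high library, and all 4 genes are low in Purkinje cells, GABA.interneuron and Progenitors.

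Within each pair the balance of the genes differed between progenitors and differentiated cells of the granule lineage. A ratio of 2 genes in the same nuclei does not depend on how the other genes of those nuclei are scaled. Zic4 per Zic1 was 0.964 (0.931 to 1.01 over 4 libraries) in GNPs and 0.660 (0.631 to 0.706) in differentiated granule neurons, and Zic5 per Zic2 was 1.53 (1.37 to 1.78) and 1.07 (0.934 to 1.17). The ranges did not overlap in either case. As log2 ratios of the level in GNPs to that in granule neurons of the same library, Zic4 was at 0.51 ± 0.05 (SD, n = 4) and Zic5 at 0.37 ± 0.13 (SD, n = 4), both higher in GNPs in 4 of 4 libraries. Zic2 was at -0.15 ± 0.08 (SD, n = 4), lower in GNPs in 4 of 4 libraries, and Zic1 at -0.04 ± 0.01 (SD, n = 4), a difference that turned to 0.05 in nuclei with at least 2000 detected genes. These are descriptions, since cell types were named from clusters of the same counts.

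The GABAergic lineage gave ratios of a similar kind, chosen after the values were seen. Zic4 per Zic1 was 0.928 (0.837 to 1.01) in interneuron progenitors and 0.513 (0.496 to 0.546) in differentiated GABA interneurons, and Zic5 per Zic2 was 1.42 (1.30 to 1.49) and 1.03 (0.940 to 1.10). The ratio of Zic4 to Zic1 was also low in immune cells (0.534 ± 0.0677) and oligodendrocytes (0.573 ± 0.0875; SD, n = 4 for each). Their Zic1 UMIs went with those of Neurod1, a transcription factor of granule neurons. In Purkinje cells the ratio was 0.508 ± 0.0849 (SD, n = 4). Zic1 UMIs per Neurod1 UMI ran from 3.40 to 4.32 there and from 3.05 to 3.41 in granule neurons, an overlap only at the edge. In differentiated GABA interneurons the whole range of Zic4 per Zic1 was below that of granule neurons.

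Neurod1 UMIs were counted in every PF/F type, and Neurod1 served as a gauge of granule neuron RNA, whose route into other types was not tested. Zic1 gave 3.22 ± 0.181 UMIs per Neurod1 UMI (SD, n = 4) in differentiated granule neurons. It gave 3.13 ± 0.607 in immune cells, 3.46 ± 0.362 in oligodendrocytes and 3.29 ± 1.52 in endothelial cells (SD, n = 4 for each), with ranges that overlapped that of granule neurons, on 93, 333 and 37 Neurod1 UMIs. Zic4 per Zic1 in immune cells (0.435 to 0.579) was wholly below that in granule neurons. Zic1 UMIs per Neurod1 UMI were at 8.17 ± 1.30 in astroglia, 6.49 ± 1.14 in meningeal cells and 6.26 ± 0.635 in GABAergic interneuron progenitors (SD, n = 4 for each). Each of these types had its whole range of Zic1 per Neurod1 above that of granule neurons. Zic2 gave 1.46 ± 0.644 per Neurod1 UMI in meningeal cells and 0.525 ± 0.0506 in granule neurons (SD, n = 4 for each), and Zic5 gave 1.42 ± 0.437 and 0.568 ± 0.112 (SD, n = 4 for each). Zic4 gave 7.95 ± 1.98 in astroglia, 6.03 ± 2.36 in meningeal cells and 2.12 ± 0.0627 in granule neurons (SD, n = 4 for each). In differentiated GABA interneurons Zic1 gave 4.66 ± 0.575, Zic2 0.938 ± 0.234 and Zic5 0.981 ± 0.306 per Neurod1 UMI (SD, n = 4 for each), each with its whole range above that of granule neurons, while Zic4 gave 2.40 ± 0.390 (SD, n = 4), a range that overlapped it.

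With each nucleus thinned to 1500 UMIs, 52.5 ± 4.17% of GNPs (SD, n = 4) had a UMI of Zic1, 49.6 ± 2.93% of Zic4, 15.5 ± 2.89% of Zic5 and 10.6 ± 1.15% of Zic2. In Purkinje cells, the type taken to lack them, the shares were 11.9 ± 6.50%, 5.49 ± 2.81%, 1.73 ± 0.749% and 1.64 ± 0.614% (SD, n = 4 for each). Thinning left out 372 PF/F nuclei and 20 PTB nuclei with fewer UMIs. Unthinned, 71.4 ± 2.28% of all annotated PF/F nuclei (SD, n = 4) had a Zic1 UMI, against 47.8 ± 4.69% (SD, n = 4) when thinned.

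In the PTB the pairs parted. Zic1 and Zic4 were highest in CT2, 1 of 4 types annotated as connective tissue (CT). Zic2 and Zic5 were highest in CP3 and high in CP5, 2 of 6 types annotated as chondrocyte progenitors (CPs). CT2 was not low for this second pair, with Zic2 at 53.0 ± 18.5 CPM and Zic5 at 42.6 ± 6.81 CPM (SD, n = 4 for each). For Zic2 the ranges of CT2 and CP5 overlapped. Zic1 in CT2 was at 113.3 and 111.6 CPM in Tbx1+/- and at 119.5 and 130.1 CPM in WT. Zic4 in CT2 was at 92.2 and 141.8 CPM in Tbx1+/- and at 131.1 and 164.8 CPM in WT. CT2 led for both genes in 4 of 4 libraries. CP3 came next for Zic1 (101 ± 3.35 CPM, SD, n = 4), followed by CT3 (69.9 ± 4.53 CPM, SD, n = 4) and CT4 (67.3 ± 13.2 CPM, SD, n = 4). For Zic4 the next types were CT4 (79.2 ± 12.8 CPM, SD, n = 4), CP3 (76.4 ± 15.8 CPM, SD, n = 4) and CP2 (65.1 ± 10.2 CPM, SD, n = 4), with overlapping ranges.

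CP5 was at the bottom of the order for Zic1 and Zic4. Zic1 there was at 14.3 and 13.4 CPM in Tbx1+/- and at 13.7 and 11.5 CPM in WT. Osteoclasts, cells of the blood lineage that are taken here to lack ZIC factors, had 15.8 ± 1.91 CPM (SD, n = 4) of Zic1 and 11.0 ± 4.70 CPM (SD, n = 4) of Zic4. CP5 was thus not above osteoclasts for Zic1 or for Zic4 (8.41 ± 3.73 CPM, SD, n = 4). The source of these UMIs in CP5 and in osteoclasts was not tested. Within a library, CT2 had 7.93 to 11.3 times the Zic1 level and 12.6 to 20.4 times the Zic4 level of CP5. These are folds over levels that were not above those of osteoclasts.

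Zic5 in CP3 was at 77.6 and 90.1 CPM in Tbx1+/- and at 78.2 and 91.6 CPM in WT. In CP5 it was at 63.4 and 88.1 CPM in Tbx1+/- and at 69.3 and 89.9 CPM in WT. Zic2 in CP3 was at 56.0 and 99.1 CPM in Tbx1+/- and at 62.9 and 92.2 CPM in WT, the libraries numbered 2 being the higher ones. In CP5, Zic2 was at 56.6 and 61.9 CPM in Tbx1+/- and at 44.1 and 60.7 CPM in WT. The ranges of CP3 and CP5 overlapped for both genes, and CP3 led in 4 of 4 libraries for Zic5 and in 3 of 4 for Zic2. Against the level in osteoclasts of the same library, CP5 had 12.6 ± 0.923 times the Zic2 level and 12.4 ± 4.45 times the Zic5 level. It had 0.849 ± 0.159 times the Zic1 level and 0.836 ± 0.360 times the Zic4 level (SD, n = 4 for each). CT2 was also above osteoclasts for the chromosome 14 pair, with 11.7 ± 2.70 times the Zic2 level and 6.83 ± 2.42 times the Zic5 level (SD, n = 4 for each). CP6 and CP4 were also ordered higher for Zic5 (46.5 ± 15.0 and 42.8 ± 10.9 CPM, SD, n = 4) than for Zic1 (17.1 ± 4.07 and 30.4 ± 4.30 CPM, SD, n = 4) among the 15 types.

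**Figure D2:**
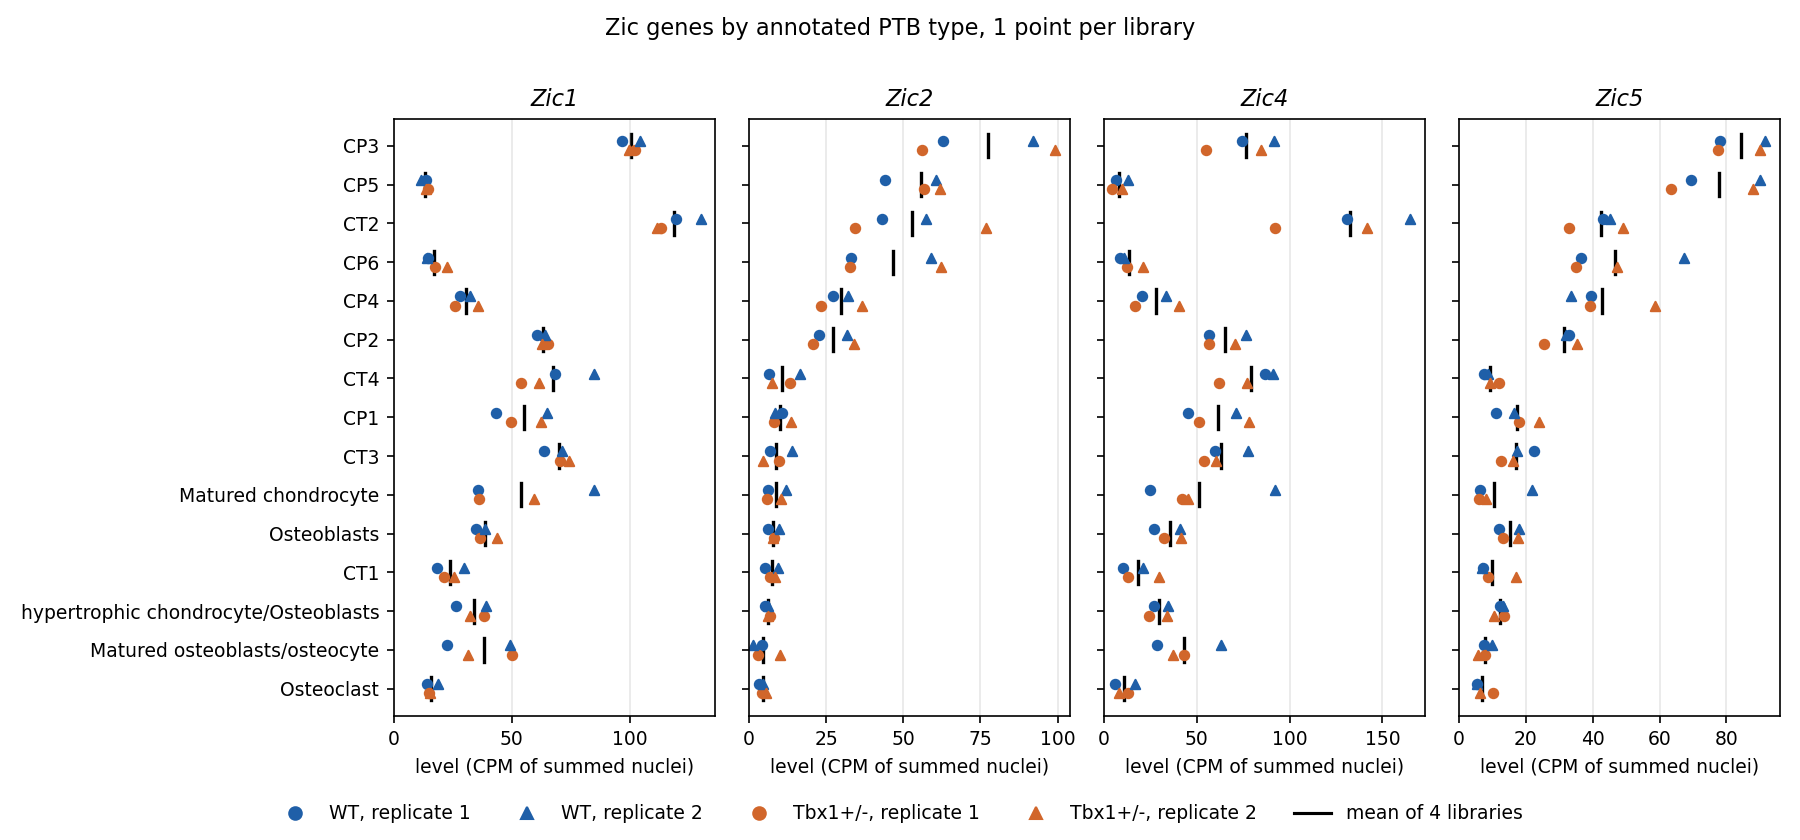
Levels of Zic1, Zic2, Zic4 and Zic5 in counts per 1000000 UMIs (x axis, from 0, with its own scale for each gene) in each annotated PTB cell type (y axis); points are libraries, coloured by genotype and shaped by replicate number, and black ticks are means of 4 libraries. Zic1 and Zic4 lead in CT2 and are lowest in CP5. In CP5 the mean of Zic5 is close to that in CP3, its highest, while that of Zic2 is below that in CP3 and near that in CT2.

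The share of Zic UMIs that came from the chromosome 14 pair puts this on a scale that does not depend on the other genes of a nucleus. The types compared were chosen after the values were seen. Zic2 and Zic5 gave 86.0 ± 0.779% of the UMIs of the 4 genes in CP5 (range 84.9% to 86.7%), 74.8 ± 6.21% in CP6, 55.7 ± 4.16% in CP4 and 47.5 ± 2.48% in CP3 (SD, n = 4 for each). They gave 27.3 ± 3.93% in CT2 and 12.3 ± 4.05% in CT4 (SD, n = 4 for each), and the ranges of CP5 and CT2 did not overlap. Over all annotated nuclei the share was 34.2 ± 1.64% in the PTB and 16.2 ± 2.54% in the PF/F (SD, n = 4 for each), and across the 16 PF/F types the mean share ran from 5.31% to 28.2%.

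**Figure D3:**
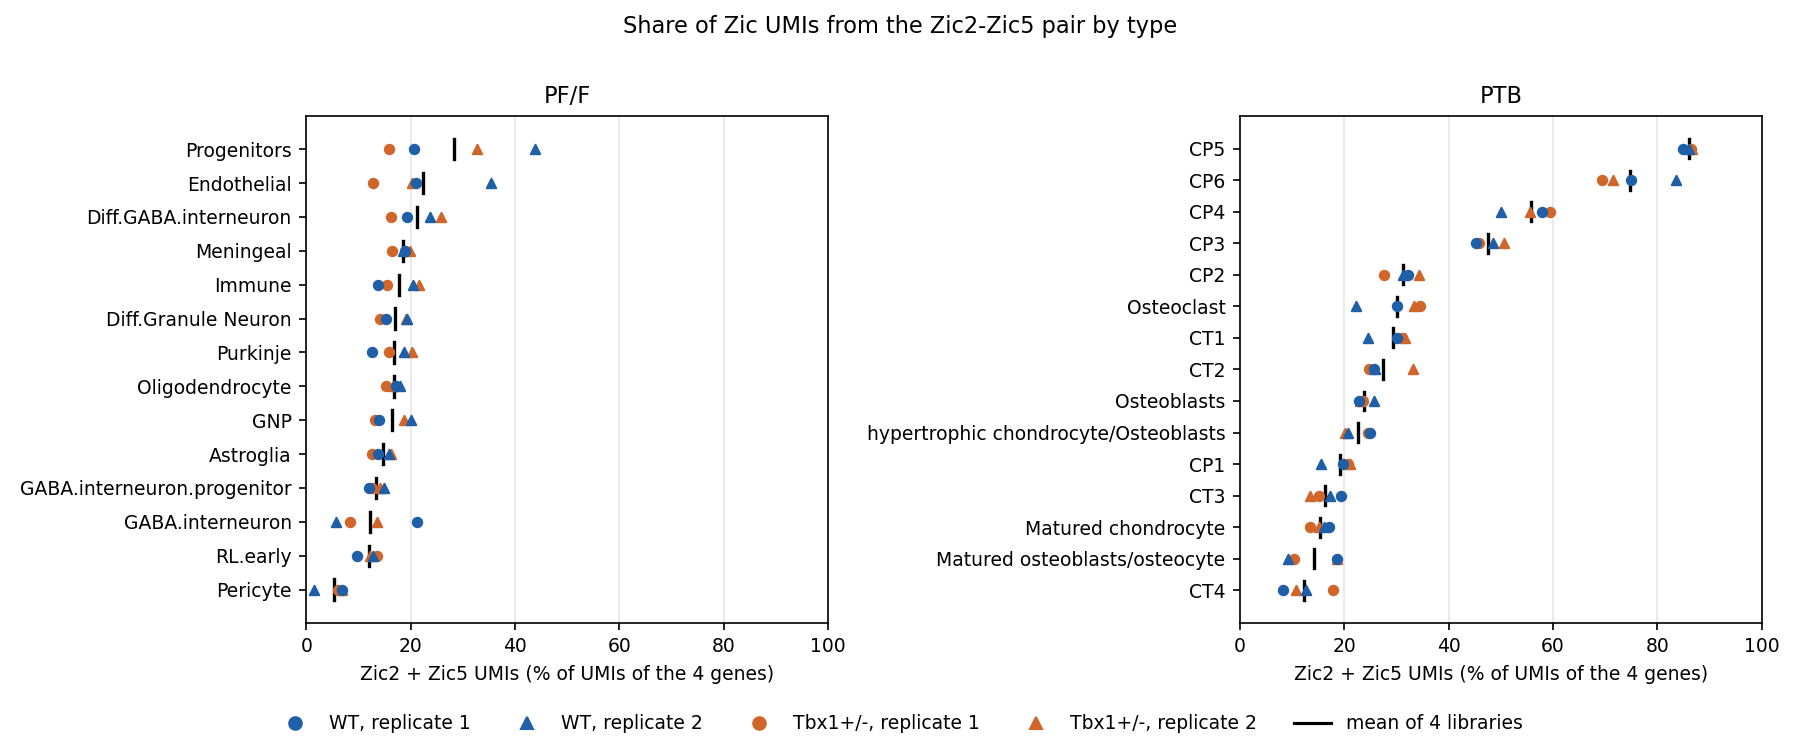
Share of the UMIs of the 4 Zic genes that came from Zic2 and Zic5 (x axis, percent) in each of 14 annotated PF/F types and of 15 PTB types (y axis); points are libraries and black ticks are means of 4 libraries. PTB types span a wider range than PF/F types, from 12.3% in CT4 to 86.0% in CP5.

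Across the 15 PTB types, mean log2(CPM + 1) of Zic1 and Zic4 had a Pearson correlation of 0.985, and that of Zic2 and Zic5 one of 0.961. Between genes of different pairs the correlations ran from -0.00 to 0.164. Across the 16 PF/F types all 6 correlations were between 0.783 and 0.974. In the WT libraries alone those of Zic2 were lower, at 0.410 with Zic1, 0.312 with Zic4 and 0.643 with Zic5, against 0.935, 0.897 and 0.935 in Tbx1+/-. Pericytes, the type with the fewest nuclei, had no Zic2 UMI in either WT library. These are descriptions over types that share libraries and depth, and in the PF/F Neurod1 UMIs were present in every type. Within nuclei thinned to 1500 UMIs, 299 PTB nuclei had UMIs of both Zic1 and Zic4 where independent detection within each library would give 106, a ratio of 2.84 ± 0.524 (SD, n = 4). The ratio was 1.81 ± 0.335 for Zic2 and Zic5, from 58 nuclei, and 1.10 ± 0.204 for Zic4 and Zic5 (SD, n = 4 for each). In CP3 alone Zic1 and Zic4 had a ratio of 2.61 ± 0.759 (SD, n = 4), whereas Zic2 and Zic5 had 1.24 ± 0.898 (SD, n = 4), from 20 nuclei. The overlap of Zic1 and Zic4 in the annotation touches their ratio, and its part was not tested. In all PF/F nuclei the 6 ratios were between 1.08 and 1.14.

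The labels of these PTB types were set against markers. CP5 held 1986 ± 232 CPM (SD, n = 4) of the 4 chondrocyte markers Col2a1, Acan, Sox9 and Matn1 together, and the type annotated as matured chondrocytes held 5523 ± 1813 CPM (SD, n = 4). CT2 held 502 ± 137 CPM (SD, n = 4) of these, with 1938 ± 476 CPM (SD, n = 4) of the connective tissue markers Vcan, Col3a1 and Gpc3. CT2 also had the highest mean among PTB types for 8 of the 17 genes of the meningeal and dural list. The share of all genes highest in CT2 was not counted. Foxc1 led there by little, at 89.4 CPM against 87.6 CPM in the next type. The others of the 17 were higher elsewhere. Tbx18 was at 74.1 CPM in CT2 and 749 CPM in CP3. Tbx15 was at 165 CPM in CT2 and 489 CPM in CT3, and Col3a1 at 1007 CPM in CT2 and 1693 CPM in CT1. Slc6a13, a GABA transporter known from the leptomeninges, was at 373 ± 104 CPM in CT2 and at no more than 11.8 CPM in any other PTB type, and in PF/F meningeal cells it was at 696 ± 40.7 CPM (SD, n = 4 for each). Ptgds, prostaglandin D2 synthase, was at 3493 ± 1125 CPM in CT2, with 407 CPM as the highest mean elsewhere in the PTB. Foxd1 (220 ± 44.5 CPM, SD, n = 4) and Aldh1a2 (143 ± 31.4 CPM, SD, n = 4), the latter an enzyme of retinoic acid synthesis, were likewise highest in CT2. The annotation calls CT2 connective tissue, and the part of meningeal cells in its Zic1 and Zic4 levels was not tested.

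In CP3, Tbx18, a T-box gene of the same list, was at 749 CPM, its highest mean in the PTB. CP6 held 1660 ± 121 CPM (SD, n = 4) of the neuronal markers Snap25, Syt1 and Rbfox3, against 184 ± 33.0 CPM (SD, n = 4) in CP5 and 35.1 ± 9.10 CPM (SD, n = 4) in CT2. The part of neuronal RNA in the Zic2 and Zic5 levels of CP6 was not tested. Neurod1, the gauge of granule neuron RNA in the PF/F, had 8 to 17 UMIs over the annotated nuclei of a PTB library, where Zic1 had 1636 to 1715. Summed over 5 markers of the granule lineage, the PTB libraries held 4.39 to 5.87 CPM and the PF/F libraries 656 to 759 CPM.

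Genes next to Zic2 and Zic5 followed the same order of PTB types, which was looked at after the levels were seen. Of 17 genes within 1000000 bases of the pair that reached 20 CPM in a PTB type, 11 had a correlation above 0.8 with Zic2, and likewise with Zic5, over 15 types. Of all 10666 genes of that level, 2.63% did so with Zic2 and 2.65% with Zic5. The 11 lie side by side on chromosome 14 of GRCm38, from the start of Gm5089 at 122365239 to the end of Nalcn at 123627144, and overlap the end of Clybl, which did not pass. Correlations with Zic2 were 0.960 for 2610035F20Rik, which lies between Zic5 and Zic2, 0.950 for Pcca, 0.906 for Ggact, 0.962 for Tmtc4 and 0.927 for Nalcn. On the other side of the pair, Clybl had 0.721, and beyond it Tm9sf2 had 0.0756, Ubac2 -0.469, Gpr18 -0.0553, Gpr183 -0.318 and Dock9 -0.162.

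In the PTB the levels showed the same border. Tmtc4, a mannosyltransferase of the endoplasmic reticulum, was at 849 ± 199 CPM in CP3, 725 ± 211 CPM in CT2, 506 ± 113 CPM in CP5 and 27.7 ± 4.05 CPM in osteoblasts (SD, n = 4 for each). Pcca, a subunit of propionyl-CoA carboxylase, was at 1007 ± 70.8 CPM in CP3, 882 ± 70.3 CPM in CP5 and 175 ± 10.2 CPM in osteoblasts (SD, n = 4 for each). Nalcn, a sodium leak channel, was at 1166 ± 104 CPM in CP3, 267 ± 34.3 CPM in CP5 and 25.9 ± 3.95 CPM in osteoblasts (SD, n = 4 for each). Tm9sf2, on the other side, was at 115 ± 12.2 CPM in CP3, 108 ± 18.4 CPM in CP5 and 124 ± 9.54 CPM in osteoblasts (SD, n = 4 for each). Several of the genes overlap others in the annotation (Pcca with Ggact, Tmtc4 with 4930594M22Rik), and shared reads between them cannot be told apart. In the PF/F, 5 of 16 genes of the window passed 0.8 with Zic2, against 0.542% of 13095 genes. They were Clybl (0.8125), both entries named Gm5089, 2610035F20Rik and Gm10837. Pcca (0.685), Ggact (0.567), Tmtc4 (0.459) and Nalcn (-0.0733) did not pass there. The border described for the PTB was thus not seen in the PF/F.

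The window around Zic1 and Zic4 held fewer genes of that level. In the PF/F 3 of 4 genes of at least 20 CPM in that window passed 0.8 with Zic1, against 1.05% of 13095 genes, and all 3 are long noncoding RNAs. Gm28652, which ends 17180 bases from the pair, had 0.888 with Zic1 and 0.929 with Zic4. In the PTB 0 of 3 genes passed, where 0.0188% of 10666 genes did so, so that the counts in the tissues are not comparable. The nearest, Gm29478, had 0.771 with Zic1 there, the third highest of 10670 genes.

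**Figure D4:**
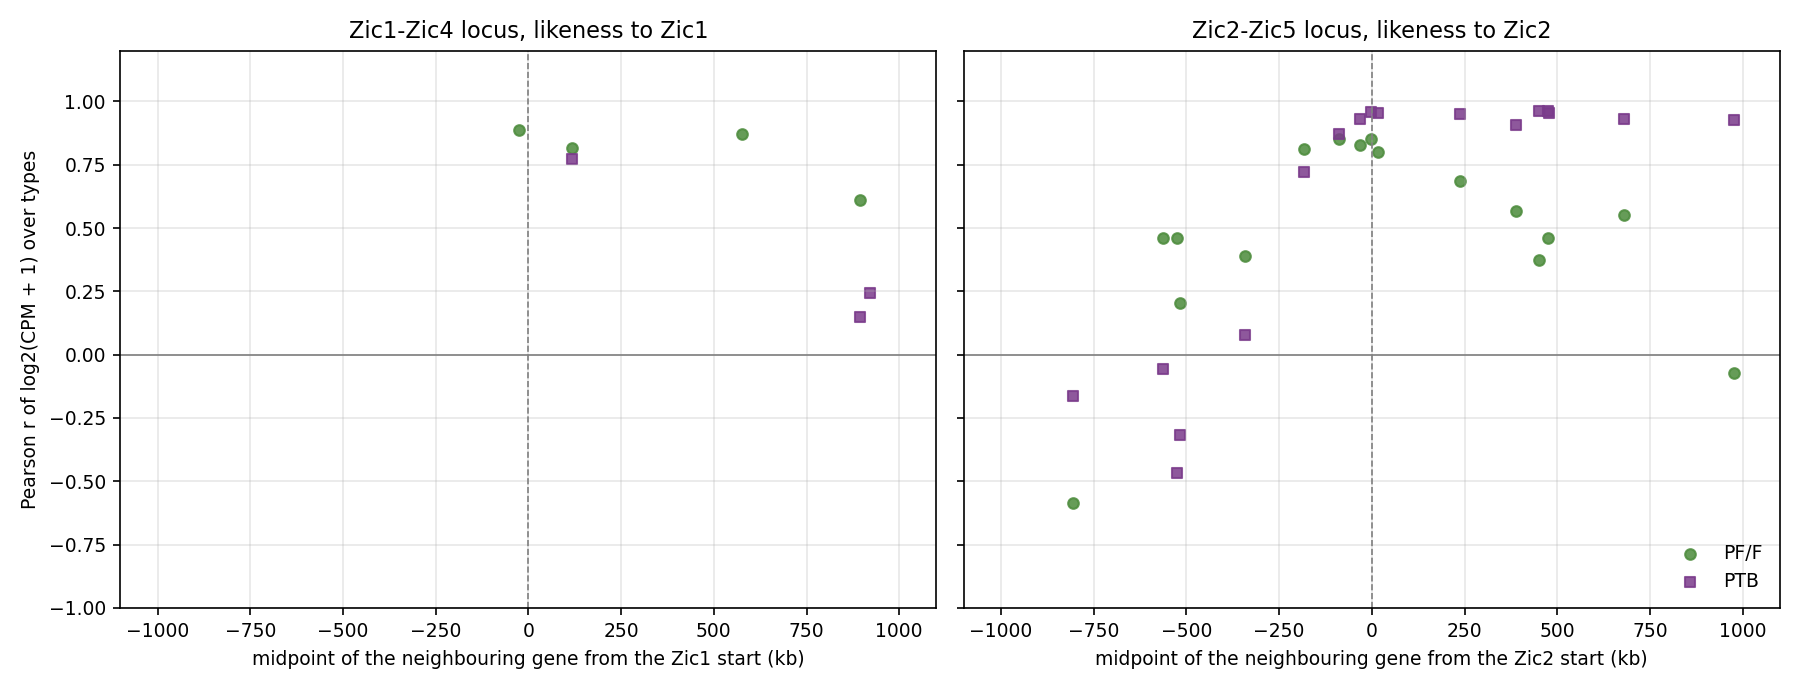
Pearson correlation over cell types of mean log2(CPM + 1) between Zic1 or Zic2 and each gene of at least 20 CPM near that pair (y axis), by the distance of the gene's midpoint from the start of Zic1 or Zic2 (x axis, kilobases); circles are the PF/F and squares the PTB. In the PTB, genes on the Nalcn side of Zic2 and Zic5 lie above 0.8 and genes beyond Clybl on the other side lie below 0.1.

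By the rule for likeness, which leaves out the other Zic genes, the PF/F genes whose order of types was most like that of Zic1 were Ror1, a receptor tyrosine kinase (0.944), Nfix, a nuclear factor I gene (0.931), and Peli2 (0.919), over 16 types and 13095 genes outside the family. Within the family Zic4 had 0.974 with Zic1, and Zic5 had 0.949 with Zic2, above the genes named for these 4. For Zic2 they were Mxi1, a MYC antagonist (0.932), Gm30541 (0.911) and Pdcd5 (0.889). For Zic4 they were Gm28652 (0.929), 2610035F20Rik (0.917) and Dnajc24 (0.911). For Zic5 they were 2610035F20Rik (0.941), Gm5089 (0.925) and Nfix (0.924). Genes next to a Zic pair thus appear for Zic4 and for Zic5, and 2610035F20Rik is listed for a gene of either pair.

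No Zic gene was called between genotypes in any cell type. In the PF/F 51 of 56 gene-by-type tests in 14 types passed the filter on low counts, and in the PTB 55 of 60 tests in 15 types. None of these tests had an adjusted p under 0.05, and 0 had an unadjusted p under 0.05, by edgeR's quasi-likelihood test and also by DESeq2. Few genes of any kind had an unadjusted p under 0.05 by edgeR's test. By share, they ran from 106 of 17091 in granule neurons to 198 of 6846 in immune cells of the PF/F. In the PTB they ran from 142 of 13730 in CP1 to 352 of 10876 in CT3, so 0 among the Zic genes says little. Over all genes and types, 0.000619% of PF/F tests and 0% of PTB tests were called, so that these counts read no differently from the background. Over all annotated nuclei, where 0% of genes were called in either tissue, the log2 difference between Tbx1+/- and WT in the PF/F was 0.03 (SE 0.24) for Zic1, 0.01 (SE 0.10) for Zic2, 0.06 (SE 0.19) for Zic4 and -0.07 (SE 0.13) for Zic5. In the PTB it was 0.01 (SE 0.15) for Zic1, -0.03 (SE 0.27) for Zic2, -0.08 (SE 0.27) for Zic4 and -0.05 (SE 0.17) for Zic5.

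In GNPs the log2 difference was 0.04 (SE 0.23) for Zic1, -0.02 (SE 0.14) for Zic2, 0.02 (SE 0.21) for Zic4 and -0.13 (SE 0.21) for Zic5. In CT2 Zic4 had -0.35 (SE 0.25), the Tbx1+/- library being the lower one within either replicate number, with ranges that overlapped, and it was not called with the replicate block. In CP5 Zic2 had 0.19 (SE 0.22) and Zic5 -0.07 (SE 0.22). The smallest unadjusted p of a member was that of Zic5 in CP1, where Tbx1+/- had 18.0 and 24.1 CPM and WT had 11.0 and 16.5 CPM, a log2 difference of 0.63 (SE 0.29, adjusted p = 1.00, edgeR's quasi-likelihood test). The ranges did not overlap there, on 43 to 66 UMIs per library. The widest difference was that of Zic4 in CP6, at 0.76 (SE 0.39), with 8.87 and 11.1 CPM in WT and 12.4 and 20.9 CPM in Tbx1+/-, on 16 to 35 UMIs. A missed threshold does not show equal levels.

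**Figure D5:**
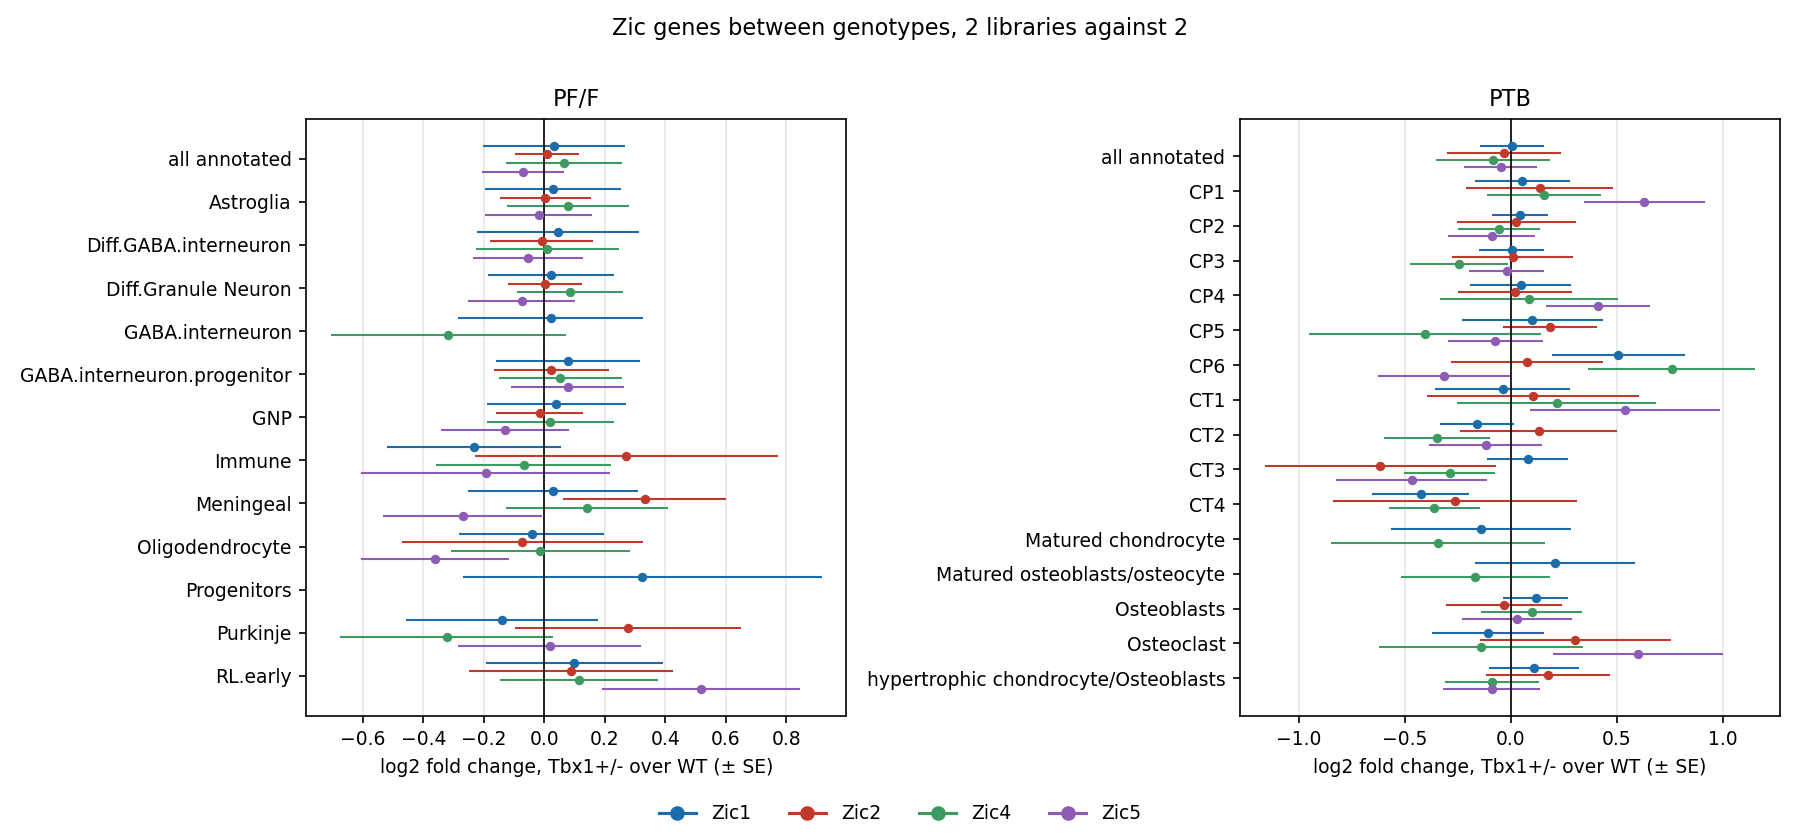
Log2 difference between Tbx1+/- and WT (x axis) of each Zic gene over all annotated nuclei and in cell types (y axis) of the PF/F and the PTB; points are the fitted values and bars are 1 standard error. Values lie on both sides of 0 in both tissues, from -0.36 to 0.52 in the PF/F and from -0.61 to 0.76 in the PTB, and none was called.

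The genotype difference was also compared between tissues and between stages of the granule lineage, where 0% of 22148 and 0% of 17287 genes were called. Between tissues, PTB minus PF/F, it differed by -0.01 (SE 0.28) for Zic1, -0.03 (SE 0.31) for Zic2, -0.14 (SE 0.35) for Zic4 and 0.03 (SE 0.24) for Zic5 on the log2 scale. Between GNPs and granule neurons of the same libraries it differed by 0.03 (SE 0.08) for Zic1, -0.00 (SE 0.11) for Zic2, -0.05 (SE 0.08) for Zic4 and -0.02 (SE 0.11) for Zic5. None of these 8 values was larger than its error. At an unadjusted p under 0.05 there were 199 and 493 genes, none of them a Zic gene.

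Libraries numbered 1 and 2 differed in their Zic levels. The study used 2 sets of mice, and whether a number marks a set is not given in the sources used here. In the PF/F Zic1 was at 493 CPM in replicate 1 and 367 CPM in replicate 2, and both libraries numbered 1 were above both numbered 2 in 15 of 16 types. Neurod1 moved with it, at 124 and 96.4 CPM. Zic4 went the same way (366 and 295 CPM, 11 of 16 types), Zic2 hardly differed (64.3 and 62.6 CPM) and Zic5 was lower in replicate 1 (75.6 and 86.4 CPM). In the PTB all 4 genes were higher in replicate 2, with Zic4 at 33.9 CPM in replicate 1 and 50.8 CPM in replicate 2 and the numbers apart in 11 of 15 types. Median UMIs per nucleus were higher in replicate 2 in both tissues. The share of mitochondrial UMIs was lower there, at 0.407% and 0.564% against 1.05% and 0.967% in the PF/F and at 0.604% and 0.718% against 1.43% and 1.02% in the PTB (WT before Tbx1+/-). The part of depth and of mitochondrial RNA in these differences was not tested.

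Gli factors and the Hedgehog pathway, whose target sequences resemble those of ZIC proteins, were read from a list of 18 genes. Of these, 10 were higher in the PTB, where 28.2% of all genes tested were called in that direction, 4 were lower and 4 were not called, with a median log2 difference of 0.87 against -0.06 over all genes (edgeR's quasi-likelihood test). Those higher in the PTB included Hhip, which binds Hedgehog ligands (3.06, SE 0.10), and the factor Gli3 (1.80, SE 0.07). Those lower included the ligand Shh (-2.89, SE 0.37), Mycn (-4.92, SE 0.18) and Ccnd2 (-0.71, SE 0.16). Within the granule lineage Gli2 was at 535 ± 36.0 CPM in GNPs and at 57.3 ± 6.26 CPM in granule neurons (SD, n = 4 for each), and the receptor Ptch1 at 326 ± 28.3 and 120 ± 3.89 CPM (SD, n = 4 for each). Zic1, by contrast, was at 501 and 515 CPM in the same types. In CP5, Gli3 was at 395 ± 8.24 CPM, and in CT2 at 229 ± 12.0 CPM (SD, n = 4 for each).

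Of 18 granule lineage genes, 17 were lower in the PTB and 1, Etv1, was not called, with a median log2 difference of -6.52, where 32.5% of all genes were called in that direction. The drop of Zic1 and Zic4 by 3.29 and 2.98 was smaller than this median. Of 17 meningeal and dural genes, 16 were higher in the PTB and 1, Slc6a13 (0.41, SE 0.21), was not called, with a median of 5.01, beside the same 28.2% over all genes. None of the genes of the 3 lists was called between genotypes in any type.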

How the data were processed

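Single-nucleus RNA was measured in 8 libraries, 4 of the PF/F and 4 of the PTB. The deposited values are counts: whole UMIs of each gene in each barcode, produced by the authors with Cell Ranger 7.0.0 (introns included, mm10), as the study's methods and the submitters' processing notes state. The authors' correction for free RNA is not in these counts. Cell types are those of the deposited annotation, which covers part of the barcodes. Doublet removal is not given in the sources used here, and an alternative dropped the 8% of nuclei with the most UMIs in each library. No filter on nuclei was added. The levels of 2 PF/F types and some values of list genes are not reported here. Of 32285 features, 32158 (99.6%) matched GENCODE vM21 by identifier, and 3 of the 4 Zic genes had a RefSeq promoter entry.

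Sums per library and type were made in Python 3.11.15 (with numpy 2.4.6; scipy 1.17.1; pandas 2.3.3). Types with at least 20 nuclei in every library were tested in R 4.3.3 by edgeR's quasi-likelihood test (version 4.0.16) after filterByExpr and TMM scaling, with Benjamini-Hochberg adjustment over all genes tested. A call needed an adjusted p under 0.05 and a change above 1.5-fold. SEs were taken from the fit as the absolute log2 change over the root of F. Endothelial cells and pericytes of the PF/F had too few nuclei for a test. DESeq2 1.42.0, other scaling factors, no filter on low counts, nuclei with at least 2000 genes, CPM without the 50 genes with the most UMIs and leaving out each library were alternatives. The smallest p of an exact permutation test with 2 libraries in either group is 0.33, so none was run. Pools of mice make p-values measure the spread between pools.

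Genotype fits were without a term for the replicate number, so their SEs hold the spread between replicate numbers. A fit with the replicate block served as an alternative, and the fit of stages had each library as a block. Fits over the 8 libraries held no term for mice, and both tissues may come from the same mice.

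The Zic genes and the gene lists were chosen with earlier results of these data known. Named genes are the 4 Zic genes, genes of the 3 lists that were called (or the first 3 of a list), Tbx1, and for each Zic gene the 3 genes with the highest Pearson correlation of log2(CPM + 1) over PF/F types among genes of at least 20 CPM in a type. The genes near the loci and the list and marker genes named for single types were picked after their values were seen. The tests were checked on simulated counts with known changes.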

Additional observations from a re-analysis of the deposited data

Results flagged for a closer look

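Zic UMIs were also present in barcodes outside the deposited annotation, which no comparison above uses. In the 1430 to 3268 such barcodes of a PF/F library, Zic1 was at 256 to 412 CPM, Zic2 at 44.8 to 54.2 CPM, Zic4 at 195 to 295 CPM and Zic5 at 58.8 to 62.2 CPM. In the 5925 to 11891 such barcodes of a PTB library, Zic1 was at 28.7 to 44.9 CPM, Zic2 at 10.0 to 16.7 CPM, Zic4 at 17.7 to 40.6 CPM and Zic5 at 15.0 to 19.8 CPM. All 8 lowest values are far above the level that 3 UMIs would give. For Zic2 and Zic5 in the PF/F and for Zic5 in the PTB every unannotated value was below every annotated one, with annotated Zic5 at 74.3 to 90.3 CPM in the PF/F and at 21.5 to 28.5 CPM in the PTB, and for the others the ranges overlapped. Within a library the unannotated level was the lower one in 32 of 32 cases. At least 1000 genes were detected in 34.0% to 50.5% of these barcodes in the PF/F libraries and in 70.2% to 81.4% in the PTB libraries. Those with at least 1000 genes were sorted by the marker list with the most UMIs, if at least 3. In the PF/F 1544 fell to a list of other neurons, with Zic1 at 312 ± 60.6 CPM (SD, n = 4), 376 to Purkinje cells and 294 to the granule lineage, with Zic1 at 530 ± 87.1 CPM (SD, n = 4), while 1099 fell to no list. In the PTB 20971 fell to the list of meninges, which holds the collagens Col1a1, Col1a2 and Col3a1 and so does not tell meninges from bone, and the types there were not resolved.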

How the results depend on the processing

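All 4 Zic genes were called lower in the PTB under every alternative run, the replicate block and the omission of each library included (4 calls each), and 0 genotype, interaction or stage calls were made under any, with the replicate block and, for stages, with no replicate block included. The blocked fit brought 1 PTB test, Zic5 in CP1, to an unadjusted p of 0.0184, and the fit with no filter on low counts brought it to 0.0196. The log2 ratio of Zic1 between GNPs and granule neurons was 0.05 in nuclei with at least 2000 genes, -0.061 without the 8% of nuclei with the most UMIs and -0.162 without the 50 genes with the most UMIs, so its sign is not settled. Leaving out those 50 genes also gave -0.267 for Zic2 and 0.384 for Zic4 in that ratio, and levels of 631 CPM for Zic1 in granule neurons and 542 CPM for Zic4 in GNPs, 141 CPM for Zic1 in CT2 and 97.4 CPM for Zic5 in CP3, since CPM is then taken over fewer UMIs. Leaving out each library moved the level of Zic1 in granule neurons between 491 and 539 CPM, that of Zic4 in CT2 between 122 and 146 CPM, that of Zic2 in CP3 between 70.3 and 84.7 CPM and the chromosome 14 share in CP5 between 85.8% and 86.4%. That share was 89.5% without the nuclei with the most UMIs. Over the comparisons and leading levels, 161 values under an alternative kept their direction and call or moved by less than the spread, 8 moved by more and 1 turned its sign. This tally is no measure of robustness. Leaving out 1 library of 4 cannot move a mean by the full spread, so such levels and ratios could not count as moved. Counts of calls that stayed at 0 are also among the 161. Without 1 library, the genotype differences over all nuclei took either sign for all 4 genes in both tissues. Shares of nuclei with a UMI rose with the depth kept. Libraries that share a replicate number deviated together from their genotype means, with a correlation over genes of 0.839 in the PF/F and 0.576 in the PTB. The paper describes separate batches of mice in each genotype, but whether a replicate number marks a batch is not given. This is thus a hint of pairing from the data.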
